A study of Homo sapiens with 6 samples.

Results

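Open chromatin marks the ends of many genes, and a further set of open sites lies deep inside genes, far from any annotated gene end. In NCI-H1703 cells 7361 such gene-body regions were found, out of 507086 regions made by merging the peaks of 6 libraries (1.45%) and out of 37261 regions that carried a peak in every library (19.8%). A region was taken when peaks on chromosomes 1 to 22 and X, merged at 1 bp of overlap, were present in all 6 lists, the merged length was under 1500 bp, and the midpoint lay inside the span of a protein-coding gene and more than 10 kb from either end of every protein-coding or long non-coding RNA (lncRNA) gene. The regions were therefore selected on the presence of a called peak in each library and on merged length, so neither their presence in all libraries nor their narrow width is a result. What follows concerns their height, background, sequence, placement and difference between groups.

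The libraries come from the assay for transposase-accessible chromatin (ATAC-seq), in which a transposase cuts and tags exposed DNA. NCI-H1703 is an established human lung squamous cell carcinoma line. The labels assign 3 libraries (silenced replicates 1 to 3, whose titles carry the name ASO) to cells in which the lncRNA DLGAP1-AS2 was silenced and 3 (control replicates 1 to 3, titled NC) to control cells of the same line. The labels give no sequence, dose or duration for the silencing and no account of whether replicates were separate cultures, so p-values measure the spread between these 6 libraries, which may be technical, in 1 cell line. The title of the series names phosphatidic acid synthesis and signalling by YAP, a transcriptional co-activator.

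Open regions inside genes are known to include enhancers, which often sit in introns of the gene they act on or of a neighbour, and alternative promoters, from which a shorter transcript of the host gene starts. Promoters of widely expressed genes usually lie in CpG islands, stretches rich in G, C and the dinucleotide CpG, and tend to be open in many cell types. Enhancers are mostly poor in CpG, bind factors of families such as AP-1 and TEAD, and differ more between cell types. TEAD proteins are the DNA-binding partners of YAP.

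The deposited lists give no read totals, so sequencing depth is unknown. The height of a peak is the authors' pileup, the number of fragments stacked at its top, and a region takes the tallest peak it holds in each library. Background is the local fragment density that the height and the authors' fold enrichment imply. The smallest background of a list was 0.237 in silenced replicate 3 and 0.369 to 0.464 in the other 5, and silenced replicate 3 also had the lowest median heights. Values per library are given below in the order of replicates 1 to 3, the silenced libraries before the control libraries. Regions are ranked by the lowest of their 6 heights, and the tallest region of a set is the first by that measure. Of 8 squamous markers 1 (SOX2) was open within 1 kb of a gene end in all 6 lists. TP63, which defines the squamous lineage, had a peak there in 4 lists, and KRT6A and TRIM29 in none. All 7 mesenchymal markers had such a peak in every list, as did 3 of 6 alveolar, 2 of 5 neuroendocrine and 2 of 5 immune markers. Open gene ends thus covered few of the squamous markers. Inside the gene, TP63, PDGFRB (mesenchymal) and PTPRC (immune) each held 1 gene-body region, and no other marker held any.

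Some of the tallest gene-body regions coincided with a transcription start annotated inside the host gene. RefSeq places 431 starts of 340 host genes within 359 of the regions (4.88%), and 2170 starts in all lie at gene-body positions. The set of RefSeq starts used holds 34961 starts of 27195 genes, and its completeness was not checked. A region without an annotated start is one without a start of this set, and it may hold a start that the set lacks. The sequences of 5 of them are shown because they carry the contrast that the next results describe, each being the 250 bases before the start, read 5′ to 3′ on the gene's strand (RefSeq, GRCh38.p14). Capitals mark matches, on either strand, to the GC box (GGGCGG), the CCAAT box (CCAAT), the TATA box (TATAAA), AP-1 (TGANTCA) and TEAD (GGAATG) motifs. FAM117A and ANO10 hold the 2 regions with the greatest lowest height of the 7361. The FAM117A stretch lies at chr17:49764132-49764381 on the minus strand and that of ANO10 at chr3:43622012-43622261, also on the minus strand. The RTN4 stretch (chr2:55050452-55050701, minus strand), the C1GALT1 stretch (chr7:7182294-7182543, plus strand) and the KIFAP3 stretch (chr1:170074696-170074945, minus strand) belong to genes with no peak in any list at their outermost 5′ end.
FAM117A: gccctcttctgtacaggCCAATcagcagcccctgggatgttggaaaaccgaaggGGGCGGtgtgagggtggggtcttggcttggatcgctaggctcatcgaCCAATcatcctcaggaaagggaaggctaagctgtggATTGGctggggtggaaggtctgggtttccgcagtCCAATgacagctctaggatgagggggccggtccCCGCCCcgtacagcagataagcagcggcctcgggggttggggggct
ANO10: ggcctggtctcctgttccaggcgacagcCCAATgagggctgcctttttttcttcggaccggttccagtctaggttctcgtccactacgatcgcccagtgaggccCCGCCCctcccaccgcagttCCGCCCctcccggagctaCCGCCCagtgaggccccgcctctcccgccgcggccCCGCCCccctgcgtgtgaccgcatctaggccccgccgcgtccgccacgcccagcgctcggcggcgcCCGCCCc
RTN4: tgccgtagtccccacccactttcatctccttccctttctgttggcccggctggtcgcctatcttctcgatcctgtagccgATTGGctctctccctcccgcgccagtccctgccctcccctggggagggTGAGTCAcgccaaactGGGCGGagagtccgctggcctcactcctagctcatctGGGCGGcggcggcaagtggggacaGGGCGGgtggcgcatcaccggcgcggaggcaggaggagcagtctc
C1GALT1: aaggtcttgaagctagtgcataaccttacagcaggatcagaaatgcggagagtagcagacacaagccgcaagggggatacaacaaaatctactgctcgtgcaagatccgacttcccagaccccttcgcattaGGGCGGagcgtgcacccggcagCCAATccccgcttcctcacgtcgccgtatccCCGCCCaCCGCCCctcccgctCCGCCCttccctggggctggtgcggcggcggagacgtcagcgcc
KIFAP3: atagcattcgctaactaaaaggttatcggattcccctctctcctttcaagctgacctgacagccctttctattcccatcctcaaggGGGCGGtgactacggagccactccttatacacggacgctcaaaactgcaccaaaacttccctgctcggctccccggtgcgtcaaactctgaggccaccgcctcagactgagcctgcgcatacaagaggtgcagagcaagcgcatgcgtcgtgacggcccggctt
For contrast, other starts inside FAM117A and RTN4 had no peak in any of the 6 lists. The FAM117A one (chr17:49747229-49747478, minus strand) lies 16903 bp from the open start, and that of RTN4 (chr2:55048667-55048916, minus strand) lies 1932 bp from a start in the open region.
FAM117A without a peak: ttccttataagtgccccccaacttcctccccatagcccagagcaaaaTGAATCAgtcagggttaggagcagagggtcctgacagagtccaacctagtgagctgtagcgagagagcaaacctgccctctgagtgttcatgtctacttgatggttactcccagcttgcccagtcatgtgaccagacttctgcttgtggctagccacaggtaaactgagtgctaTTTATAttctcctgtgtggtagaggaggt
RTN4 without a peak: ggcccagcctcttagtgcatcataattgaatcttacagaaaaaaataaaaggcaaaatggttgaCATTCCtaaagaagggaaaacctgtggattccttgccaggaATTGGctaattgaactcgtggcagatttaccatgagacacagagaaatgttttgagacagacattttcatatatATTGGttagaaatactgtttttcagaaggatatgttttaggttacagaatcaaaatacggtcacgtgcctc
The 5 stretches with a peak had a GC content of 56.4% to 72.8% and held 10 to 28 CpG dinucleotides, and GC boxes appear in each. The 2 stretches without a peak had a GC content of 50.4% and 37.2%, held 1 and 3 CpG dinucleotides and contained no GC box.

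That contrast extended across the annotated starts. In the window from 250 bases before to 50 bases after the start, starts in gene-body regions had a median GC content of 64% and a median of 23 CpG dinucleotides. The 1354 gene-body starts with no peak in any list (62.4% of 2170) had medians of 47.3% and 4. The 11808 starts inside shared gene-end regions had medians of 66% and 27. Gene-end regions are those of all 6 lists under 1500 bp, with the midpoint within 1 kb of a protein-coding or lncRNA gene end. Broader regions there were left out of this class. A GC box was found in 59.6% of the starts in gene-body regions, in 19.4% of the gene-body starts without a peak and in 73.4% of the gene-end starts, against 45.0% of all 34961 starts in the table. A TATA box went the other way, with 6.26%, 18.1% and 4.41% of these sets and 11.5% of all starts. The shares for AP-1 were 8.58%, 10.3% and 3.97% (7.68% of all starts), for TEAD 11.4%, 16.8% and 10.2% (14%) and for CCAAT 36.4%, 33.2% and 37.8% (34.6%). These are counts of letters in a window, and the starts of 1 gene often overlap, so no test was made. GC content differed between the sets, and its part in the motif shares was not tested.

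**Figure D1:**
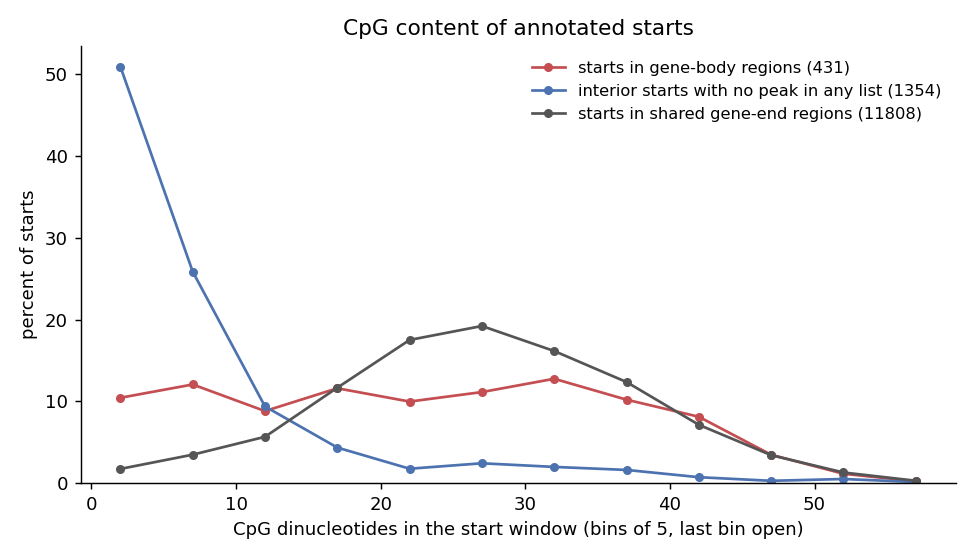
CpG dinucleotides in the window around each annotated start (x axis, bins of 5) against the percent of starts in each set (y axis). Starts in gene-body regions (red, 431) are spread over low and high counts, the 1354 gene-body starts without a peak (blue) pile up below 10, and the 11808 gene-end starts (grey) centre on their median of 27.

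Gene-body regions with an annotated start were taller than those without one. The median height over the 359 regions with a start was 26, 30 and 13 in silenced libraries and 28, 32 and 28 in control libraries. Over the 7002 regions without a start it was 11, 12 and 7 and 12, 13 and 12. The median with a start was higher in each of the 6 libraries, and the mean log2 ratio was 1.20 ± 0.16 (SD, n = 6 libraries), a 2.30-fold difference (two-sided exact sign-flip permutation test, p = 0.03125, the smallest that 6 libraries allow; adjusted p = 0.0375 over 6 class comparisons). Regions with a start were also longer, with a median merged length of 850 bp against 500 bp, and the part of length in their height was not tested. They remained lower than gene-end regions in every library, by a mean log2 ratio of −0.24 ± 0.05 (SD, n = 6; exact sign-flip permutation p = 0.03125, adjusted p = 0.0375). Of the gene-end regions 66.0% hold a start themselves, and against these alone the mean log2 ratio was −0.49 (exact sign-flip permutation p = 0.03125). These comparisons were added after the annotation of starts had been seen.

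Among the regions ranked by the lowest of their 6 heights, 5 of the first 10 held an annotated start, 39 of the first 100 and 154 of the first 1000 (15.4%), but 71 of the lower 3681 (1.93%). The region at the start inside FAM117A (chromosome 17, 49764062 to 49764611) came first, with heights of 138, 149 and 112 in silenced libraries and 144, 161 and 150 in control libraries. ANO10, which encodes a membrane protein of the anoctamin family, followed (chromosome 3, 43621830 to 43622519), at 116, 139 and 105 in silenced and 141, 158 and 132 in control libraries. In both regions silenced replicate 3 was the lowest library and control replicate 2 the highest, as in the library medians.

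The next 3 regions by this measure held no start of the RefSeq set used, which may lack some starts. ZSWIM6, which encodes a zinc-finger protein, had one (chromosome 5, 61408567 to 61409100) that lay 76575 bp from the nearest gene end, with heights of 89, 111 and 85 in silenced and 103, 112 and 102 in control libraries. ATF3, a stress-induced transcription factor, had one 12239 bp from a gene end (chromosome 1, 212608082 to 212608994), at 107, 103 and 84 in silenced and 106, 101 and 110 in control libraries. EHBP1, whose product links endocytic membranes to actin, had one at chromosome 2, 62705116 to 62706042, with 98, 87 and 78 in silenced and 84, 103 and 94 in control libraries. In these 3 regions the heights of the groups overlapped. ZNF721 (98, 106 and 77 in silenced, 100, 119 and 95 in control libraries) and DST (88, 116 and 75, then 101, 113 and 100) completed the 5 tallest regions without a start of that set. The ZNF721 region overlaps the transcribed pseudogene ABCA11P.

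At the other end of the scale stood a region in ANTXR1, an extracellular matrix receptor (chromosome 2, 69178210 to 69178771), with heights of 4, 3 and 3 in silenced and 3, 4 and 3 in control libraries. It is among 10 regions whose greatest height was 4. Its least significant FDR, the authors' adjusted p-value, was 0.112, so that a called peak in every list does not make a region strong. Of all 7361 regions, 2878 (39.1%) had an FDR of at most 1e-05 in every library.

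The height at an internal start was set beside that at the host gene's outermost 5′ end. Of the 340 genes, 187 (55%) also had a 5′-end peak, within 1 kb, in all 6 lists, 83 had one in 1 to 5 lists and 70 (20.6%) had none. Where both were present in every list, the internal start was taller in all 6 libraries for 65 genes, the 5′ end was taller in all 6 for 60 and the order differed between libraries for 62. The median distance between the internal start and the 5′ end was 40816 bp. For RANGAP1, the activator of the Ran GTPase in nuclear transport, the internal start had heights of 135, 172 and 76 in silenced and 159, 146 and 144 in control libraries, against 23, 37 and 11 and 40, 31 and 28 at the 5′ end. For CANX, the endoplasmic reticulum chaperone calnexin, they were 186, 161 and 64 and 152, 170 and 160, against 45, 64 and 14 and 45, 55 and 64. Its region exceeded that of FAM117A in 5 of 6 libraries and ranked lower through silenced replicate 3.

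In the 70 genes without a peak at the 5′ end, the median height at the internal start ran from 13 to 33 over the libraries. RTN4, a reticulon that shapes the endoplasmic reticulum, had 100, 140 and 75 in silenced and 124, 131 and 126 in control libraries at a region with several annotated starts, 1 of them 87233 bp from the 5′ end. C1GALT1, the enzyme that builds core 1 O-glycans, had 108, 122 and 65 and 112, 136 and 105. KIFAP3, a kinesin-associated protein, had 110, 160 and 57 and 107, 133 and 120. PES1, which acts in ribosome assembly, had 88, 76 and 56 and 73, 86 and 88. In all 4 genes no library showed a peak at the outermost annotated end, while the internal peak in every library is set by the rule. For the regions of RTN4, C1GALT1 and KIFAP3, the sequence before 1 of their annotated starts is printed above. Peaks do not show transcription, and RNA was not analysed here.

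**Figure D2:**
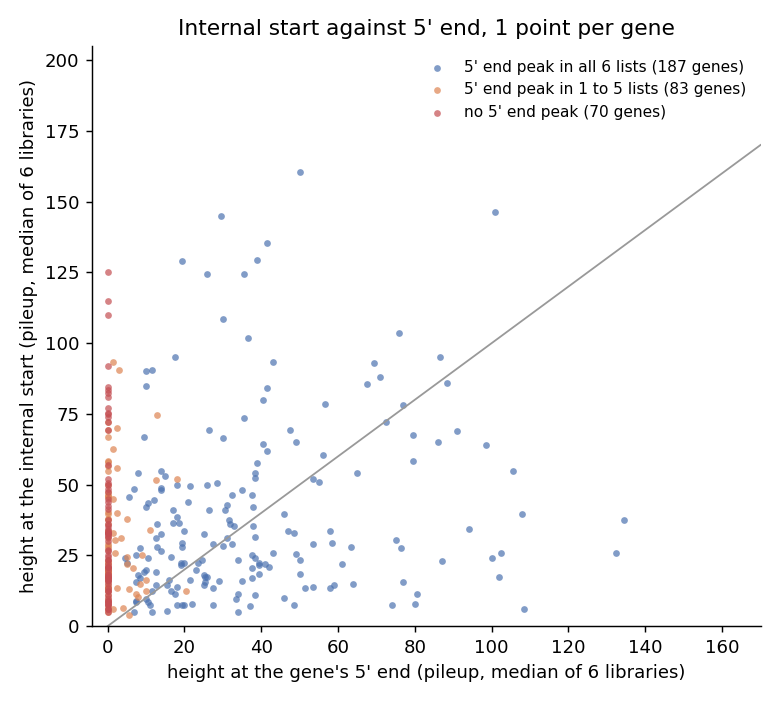
Height at the internal start (y axis, pileup, median of 6 libraries) against height at the outermost 5′ end (x axis, same unit) for 340 genes, with 1 point per gene, its tallest internal start, and a line of equal height. Points fall on both sides of the line, and the 70 genes without a peak at the 5′ end (red) stand at 0 on the x axis.

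As a class, the gene-body regions were far lower than gene-end regions and close to intergenic regions. Their median height was 11, 13 and 8 in silenced libraries and 12, 14 and 12 in control libraries. For the 12309 gene-end regions it was 31, 36 and 16 and 32, 36 and 33. Intergenic regions were the 5465 of all 6 lists, under 1500 bp, outside protein-coding and lncRNA spans and over 10 kb from every end. Their median height was 11, 12 and 7 and 11, 13 and 12. Gene-body regions were 2.58-fold lower than gene-end regions, with a mean log2 ratio of −1.37 ± 0.19 (SD, n = 6) and the same direction in 6 of 6 libraries (exact sign-flip permutation p = 0.03125, adjusted p = 0.0375). Against intergenic regions the mean log2 ratio of heights was 0.09 ± 0.08 (SD, n = 6), above 0 in 4 libraries and at 0 in 2 (exact sign-flip permutation p = 0.125, adjusted p = 0.125). Without the regions that hold an annotated start (chosen after seeing the data), it was 0.02 (exact permutation p = 1).

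**Figure D3:**
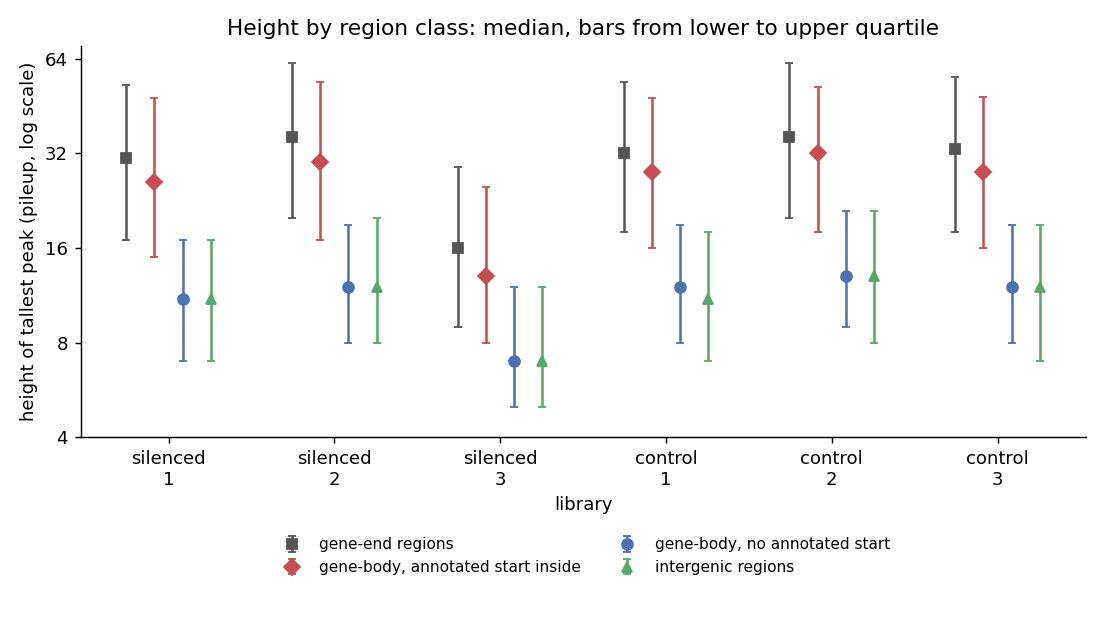
Median height of the tallest peak per region (y axis, pileup, log scale) in each of the 6 libraries (x axis), with bars from the lower to the upper quartile over regions. In every library gene-body regions with an annotated start (red) sit just under gene-end regions (grey), while those without one (blue) sit at or within 1 of the intergenic regions (green).

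The background behind the regions did separate the classes. Its median in gene-body regions was 0.70, 0.76 and 0.46 in silenced libraries and 0.72, 0.88 and 0.72 in control libraries. The ratio to intergenic regions was 1.09, with a mean log2 ratio of 0.13 ± 0.01 (SD, n = 6; higher in 6 of 6 libraries, exact sign-flip permutation p = 0.03125, adjusted p = 0.0375). Against gene-end regions the mean log2 ratio was −1.44 ± 0.16 (SD, n = 6; exact sign-flip permutation p = 0.03125, adjusted p = 0.0375). Background is computed from the same peaks as height and takes in fragments of the peak itself.

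Gene-body positions were mostly occupied by peaks of a single list, as were the regions of the series in general. Of 161152 merged regions under 1500 bp there, 124660 (77.4%) were in 1 list, 3162 (1.96%) in 5 and 7361 (4.57%) in all 6. The share in 1 list was 46.6% at gene-end positions, 79.0% at intergenic positions and 74.1% over all regions of any length. The share in all 6 was 32.6%, 3.996% and 7.35% in the same order. Peak numbers per list ran from 91282 (control replicate 2) to 170747 (control replicate 1), and their part in these shares was not tested. Per megabase, gene bodies held 8.54 regions of all 6 lists under 1500 bp, intergenic space 5.06 and gene ends 86.9. Of the 7361 regions, 6674 (90.7%) had exactly 1 peak in every list, and 7064 (96.0%) had a stretch covered by all 6. The midpoints of the 6 tallest peaks of a region spread over a median of 104 bp, and the median merged length was 507 bp (quartiles 391 and 641 bp). Heights in pairs of libraries correlated across the regions at a Spearman rho of 0.811 to 0.830 without silenced replicate 3 and 0.741 to 0.751 with it. For gene-end regions the ranges were 0.948 to 0.955 and 0.885 to 0.895, and for intergenic regions 0.808 to 0.814 and 0.735 to 0.744. Regions are not independent replicates.

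Regions stood at a median of 27995 bp from the nearest gene end (quartiles 16490 and 52930 bp, maximum 707293 bp), and those farther away were lower. The 2509 regions over 10 and up to 20 kb away had median heights of 12, 14 and 8 in silenced and 13, 15 and 13 in control libraries. The 127 regions over 200 kb away had 8, 10 and 6 and 8, 9 and 9. The median background was 0.52 to 1.04 over the libraries in the nearest set and 0.30 to 0.52 in the farthest, and its part in the heights was not tested. Annotated starts were present in 5.74% of the nearest and 2.36% of the farthest regions. Between chromosomes, regions per megabase of gene body ran from 4.79 on X to 17.5 on chromosome 19, and the background relative to all gene-body regions, averaged over the libraries, ran from 0.70 on X to 1.45 on chromosome 19.

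Regions in KIAA0232 and TAAR5, each 10001 bp from a gene end, fell just inside the distance limit. Their heights were 10, 8 and 11 in silenced and 12, 25 and 20 in control libraries for KIAA0232, and 10, 18 and 4 and 12, 9 and 13 for TAAR5. A region in CFAP57 at 9996 bp (11, 14 and 8, then 22, 15 and 14) and one in JAG1 at 9993 bp (8, 7 and 9, then 13, 11 and 13) fell just outside. By length, regions in SSBP4 (1499 bp; heights of 19, 22 and 11, then 22, 25 and 23) and UIMC1 (1487 bp; 37, 43 and 15, then 39, 43 and 44) were inside. Regions in ZNF331 (1509 bp; 18, 21 and 4, then 13, 26 and 14) and LUC7L2 (1513 bp; 61, 52 and 26, then 49, 59 and 60) were outside. Only 29 regions that met every other condition (0.392%) were left out for length.

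The regions lay in 3997 host genes, and 2295 of these (57.4%) held 1 region, 1478 held 2 to 4, 211 held 5 to 9 and 13 held 10 or more. Longer genes held a region more often, from 14.1% of 4733 genes of over 20 and up to 50 kb to 87.6% of 314 genes over 500 kb. Per megabase of gene interior the longest genes held fewer, with 3.96 against 12.9 in the shortest. TRIO held the most (27 regions in 366863 bp), followed by KCNMA1, the pore of a calcium-activated potassium channel (18 in 768207 bp), PDGFC, a ligand of the platelet-derived growth factor receptor (18 in 211346 bp), MACF1, a linker of actin and microtubules (17), and GSE1 (16). Next came CAMTA1 (15), DST, another cytoskeletal linker (15), the guidance factor SEMA3A (13), the cyclic AMP phosphodiesterase PDE4D (12), and DLGAP1 and PRKAG2 (11 each).

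The median height of the TRIO regions was 28, 31 and 17 in silenced and 29, 33 and 28 in control libraries, while in PDE4D it was 5, 7 and 6.5 and 6.5, 7 and 9. The tallest in TRIO (chromosome 5, 14250026 to 14250766) reached 92, 84 and 57 in silenced and 95, 108 and 93 in control libraries. The median background of the TRIO regions was 3.22 to 6.24 over the libraries, against 0.46 to 0.88 for all gene-body regions. Their median fold enrichment was 4.20 to 5.12, against 5.66 to 7.41 for all gene-body regions, and that of the tallest was 8.52 to 10.2. The median background of the PDGFC regions was 1.69 to 3.59. The part of the background in these heights and counts was not tested. In PDGFC the tallest region by its lowest height (chromosome 4, 156941986 to 156942350) had 81, 71 and 65 in silenced and 82, 98 and 77 in control libraries. In KCNMA1 it was at chromosome 10, 77392740 to 77393389 (55, 72 and 49, then 52, 72 and 56), and in MACF1 at chromosome 1, 39192113 to 39192709 (35, 27 and 23, then 34, 30 and 34). In GSE1 it was at chromosome 16, 85330757 to 85331178 (24, 27 and 27, then 29, 35 and 36).

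Some regions stood in runs, with at most 12483 bp between neighbours. Of all regions 5474 (74.4%) had no such neighbour in a run, and 10 runs held 5 or more. The 2 longest runs, of 7 regions each, were both in TRIO and spanned 32.2 kb (chromosome 5, 14250026 to 14282176) and 31.9 kb (14154062 to 14185965). The former had median heights of 47, 54 and 31 in silenced and 47, 56 and 53 in control libraries, and the latter 33, 33 and 23 and 29, 40 and 42. Runs of 6 regions lay in MLXIPL, a glucose-sensing transcription factor (chromosome 7, 73606678 to 73636708; median heights of 8.5 to 13.5 over the libraries), and at 2 places in PDGFC. The PDGFC run at 156931158 to 156955299 had medians of 34, 29 and 20.5 and 33.5, 33.5 and 28.5.

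**Figure D4:**
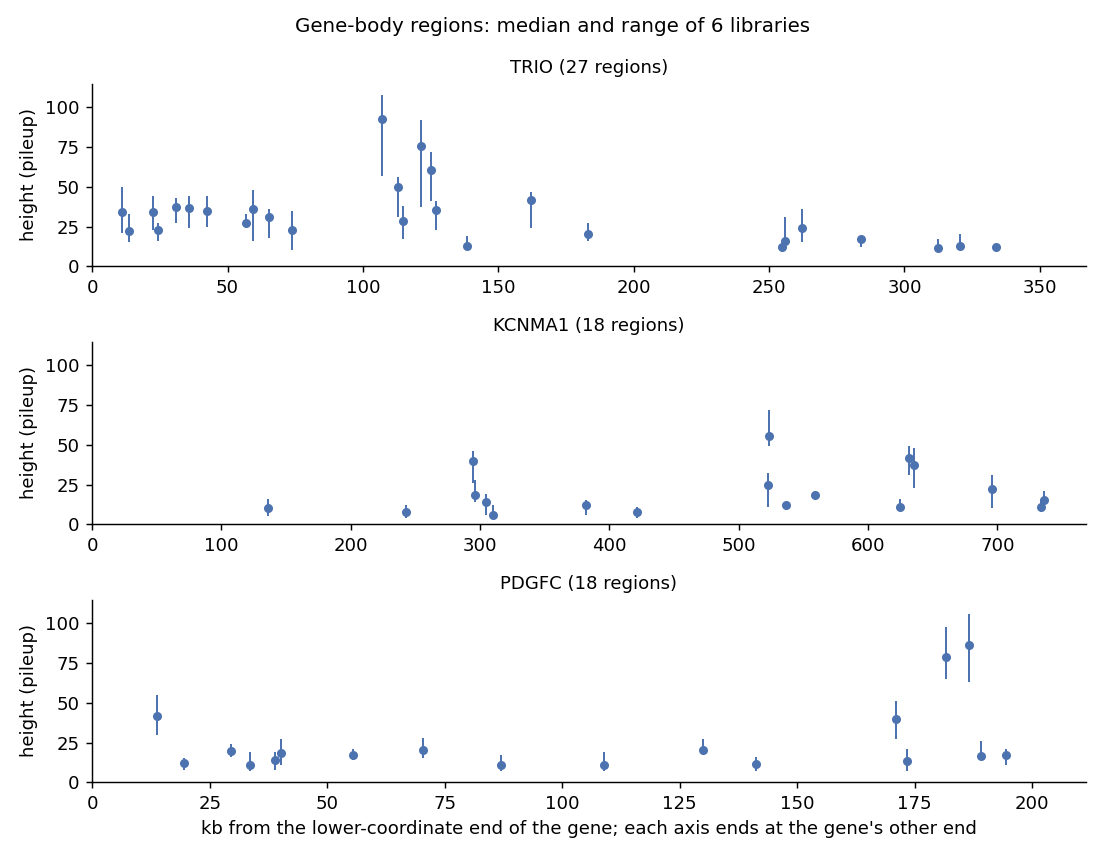
Height of each gene-body region (y axis, pileup; point, median of 6 libraries; bar, lowest to highest library) along the 3 genes with the most regions (x axis, kb from the end of lower coordinate, drawn to the gene's full length). In TRIO the tallest regions fall between 107 and 127 kb, and in PDGFC the 2 tallest lie near 182 and 186 kb.

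DLGAP1, a scaffold protein of synapses, is the gene whose span contains the silenced lncRNA, and it held 11 regions. This gene was looked at after its count had been seen. Its tallest region (chromosome 18, 3623593 to 3624582) lay 13998 bp from the nearest gene end, which is that of DLGAP1-AS2 itself, with heights of 96, 79 and 52 in silenced and 96, 89 and 83 in control libraries. A second region next to it (3624812 to 3625458) had 38, 38 and 24 and 47, 42 and 55, and one 106201 bp from any end (3771274 to 3771974) had 45, 60 and 27 and 48, 56 and 45. The groups overlapped in the first and the third. In the second every silenced library was below every control library, as in 678 gene-body regions (9.21%) and 8.79% of all shared regions. The opposite order, all silenced libraries above, was found in 23 gene-body regions (0.312%) and 0.161% of all shared regions. Heights are not adjusted for depth, silenced replicate 3 had the lowest library median, and its part in this imbalance was not tested. By rank score, explained below, 6 of the 11 regions were higher in silenced cells and none had an unadjusted p under 0.05 (limma, smallest unadjusted p = 0.0575).

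Gene lists drawn up around the series' title were counted among genes over 20 kb, the only ones that can hold a region. Of all 10991 such protein-coding genes, 3997 (36.4%) held one. The counts were 9 of 13 YAP targets, 11 of 21 Hippo pathway and TEAD genes, 12 of 16 phosphatidic acid synthesis genes, 16 of 24 receptor tyrosine kinases, 18 of 26 adhesion and cytoskeleton genes and 10 of 18 genes of the TGF-beta pathway and mesenchymal state. The median length of these list genes was 88.6 to 129 kb, against 58.5 kb for all genes over 20 kb. Longer genes held regions more often in general. The part of length in the list counts was not tested, and no conclusion on any list is drawn.

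In the Hippo pathway, which restrains YAP, the kinase gene STK3 held 6 regions. The tallest (chromosome 8, 98825318 to 98826320) measured 81, 113 and 65 in silenced and 101, 120 and 88 in control libraries. VGLL4, a competitor of YAP for TEAD, followed (chromosome 3, 11600395 to 11601327; 84, 96 and 50, then 75, 87 and 80). NF2, an upstream activator, had 30, 38 and 25 and 43, 52 and 46 at its tallest region. WWTR1, the YAP paralogue also named TAZ, held 7 regions and TEAD4 held 1, while YAP1 and TEAD1 to TEAD3 held none. The heights of the groups overlapped for STK3 and VGLL4 and did not for NF2, where every control library was higher. That order held in 9.21% of gene-body regions and 8.79% of all shared regions, by heights not adjusted for depth. Among YAP targets MYOF, a membrane repair protein, held 7 regions, the tallest with 39, 36 and 24 in silenced and 47, 43 and 41 in control libraries, and CRIM1 held 5, the tallest with 37, 37 and 22 and 40, 55 and 40. AXL, AMOTL2, CCDC80 and DOCK5 are long enough but held none.

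Phosphatidic acid is made by acylation of glycerol phosphate, by phosphorylation of diacylglycerol and by phospholipase D. Of the acyltransferases GPAM had a region that holds an annotated start, with heights of 18, 27 and 9 in silenced and 21, 19 and 20 in control libraries. Diacylglycerol kinases made up 7 of the 12 genes with a region. DGKA had heights of 45, 58 and 29 and 52, 52 and 42, DGKG had 41, 48 and 20 and 30, 46 and 51, and DGKZ had 28, 44 and 20 and 31, 48 and 48. In these 3 genes the groups overlapped. DGKD held the most regions (5) and PLD1, a phospholipase D, held 3.

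Among receptor tyrosine kinases EGFR held 6 regions. The tallest (chromosome 7, 55073895 to 55074515) had 72, 63 and 60 in silenced and 99, 85 and 75 in control libraries, which do not overlap. Every silenced library was likewise below every control library in 9.21% of gene-body regions and 8.79% of all shared regions. MET held 4, the tallest with 35, 55 and 25 and 43, 59 and 42. PDGFRA and FGFR1 each held 1 region, of moderate height. Their background was above the median of all gene-body regions in every library. The tallest regions of EGFR and EPHA2 were also above that median, and the tallest of ERBB4 was below it. The PDGFRA region had heights of 15, 15 and 8 and 17, 19 and 20 on a background of 1.18 to 2.7 over the libraries, and that of FGFR1 had 14, 17 and 14 and 23, 23 and 28 on 1.26 to 2.7. Among adhesion genes PTK2, the focal adhesion kinase, held 7 regions, TNS3 held 6 and the talin gene TLN2 held 5. The tallest in TNS3 had 36, 26 and 23 and 34, 41 and 42. In the TGF-beta group SMAD3, a signal transducer of the receptor, held 4 regions, the tallest with 34, 43 and 26 and 42, 35 and 46, whereas ZEB1, ZEB2 and FN1 held none.

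A few regions overlapped other annotated genes. Pseudogenes overlapped 46 regions (0.625%) and transcribed pseudogenes 10, among them CETN4P within BBS12 (91, 103 and 63 in silenced, 90, 112 and 96 in control libraries). MicroRNA genes overlapped 5, tRNA genes 3 and small nucleolar RNA genes 3. MIR589, inside FBXL18, lay in a region with heights of 34, 35 and 20 and 33, 38 and 32, and SNORA120, inside VWF, in one with 42, 53 and 36 and 42, 58 and 46. The groups overlapped in these 3 regions.

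Silencing of DLGAP1-AS2 was compared by rank, because depth is unknown. The fold enrichment of each region was ranked within its library among all 37261 shared regions, and the rank was turned into a normal score, which is 0 at the middle and negative below it. The mean score of the gene-body regions was −0.272, −0.261 and −0.227 in silenced libraries and −0.250, −0.233 and −0.241 in control libraries. Silenced libraries averaged −0.253 ± 0.023 (SD, n = 3) and control libraries −0.241 ± 0.008 (SD, n = 3), and the values overlapped. The difference of −0.0123 was within the spread of replicates (two-sided exact permutation p = 0.5, adjusted p = 0.5 over 2 tests; 3 libraries against 3 cannot go below 0.1). Ranking by height or by p-value turned its sign (0.0278 and 0.0223, exact permutation p = 0.9 and 1).

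The share of gene-body regions with an FDR of at most 1e-05 was 69.7%, 75.02% and 52.9% in silenced libraries and 73.98%, 76.05% and 74.96% in control libraries. The means were 65.9% ± 11.5 (SD, n = 3) and 75% ± 1.03 (SD, n = 3), with an exact permutation p of 0.3 and an adjusted p of 0.5. Silenced replicate 3, the library of lowest background, held the low value. Without it the difference was −2.63 percentage points in place of −9.11, and with the limit set at an FDR of 0.05 it was −1.72, with all 6 libraries.

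No single gene-body region differed between groups after adjustment. Of 7361 regions 0 had an adjusted p under 0.05 (limma on the scores of all 37261 shared regions with Benjamini-Hochberg adjustment, smallest adjusted p = 0.962), as for all shared regions (0%). At an unadjusted p under 0.05, 167 gene-body regions (2.27%) scored higher and 228 (3.10%) lower in silenced cells, against 1.98% and 2.7% of all shared regions. Other rankings turned this balance. Ranked by height, 185 (2.51%) scored higher and 125 (1.70%) lower, against 2% and 2.33% of all shared regions, and ranked by p-value 175 (2.38%) and 137 (1.86%), against 2.03% and 2.32%. An adjusted p above the threshold with 3 libraries per group does not show that regions were alike. The scores of the 2 groups did not overlap in 374 gene-body regions that were higher in silenced cells and 350 that were lower (5.08% and 4.75%), against 5.39% and 4.78% of all shared regions. These non-overlapping shares are near the background. Across the gene lists the regions with an unadjusted p under 0.05 numbered 0 to 2 in each direction, of 18 to 52 regions per list, and the median score differences were −0.079 to 0.018, against −0.016 over all gene-body regions. No region of a list passed the adjusted threshold (limma, smallest adjusted p = 0.962). By height, every silenced library was below every control library at the tallest region of 13 of the 75 list genes with a region (17.3%). These were MYOF, CRIM1, STK4, NF2, AMOTL1, EGFR, IGF1R, FGFR1, PDGFRA, ITGB5, TLN2, TNS1 and TGFBR1. The same order held in 9.21% of gene-body regions and 8.79% of all shared regions. The opposite order occurred at none of the 75, and in 0.312% of gene-body and 0.161% of all shared regions. Heights are not adjusted for depth. The part of depth, or of taking the tallest region of each gene, in these shares was not tested.

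The 3 gene-body regions with the smallest limma p in each direction are given as the extremes of 7361, none of which passed the adjusted threshold. In OTOG, the gene of an inner-ear matrix protein, a region (chromosome 11, 17598941 to 17599339) was at 12, 14 and 9 in silenced and 5, 7 and 4 in control libraries, with a score difference of 1.58 ± 0.37 (SE; limma unadjusted p = 0.000467). In MAPKAP1, a subunit of the mTORC2 kinase complex (chromosome 9, 125649342 to 125649892), the heights were 21, 15 and 8 and 5, 4 and 10 (difference 1.84 ± 0.47). In SNAP91, a clathrin assembly protein (chromosome 6, 83592843 to 83593163), they were 11, 14 and 11 and 5, 6 and 9 (difference 1.31 ± 0.35). Heights did not overlap between groups in OTOG and SNAP91 and overlapped in MAPKAP1. All silenced libraries were above in 0.312% of gene-body regions and 0.161% of all shared regions. Heights and scores come from the same peaks, so the heights of regions picked by limma p are no separate support.

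Lower in silenced cells were regions in PDXDC1, in the joint span of SPTLC3 and TASP1, and in NR5A2. The PDXDC1 region (chromosome 16, 15022097 to 15022532) measured 43, 44 and 26 in silenced and 59, 66 and 55 in control libraries, with a score difference of −0.75 ± 0.19 (SE; limma unadjusted p = 0.00108). PDXDC1 has a near-identical pseudogene copy, so reads could be split between the copies, which was not tested. In SPTLC3, a subunit of serine palmitoyltransferase (chromosome 20, 13119518 to 13119912), they were 4, 5 and 4 and 11, 16 and 10 (difference −1.38 ± 0.36). In the nuclear receptor gene NR5A2 (chromosome 1, 200139670 to 200140029) they were 18, 23 and 16 and 33, 40 and 26 (difference −0.77 ± 0.21). In all 3 every silenced library was below every control library in height, as in 9.21% of gene-body regions and 8.79% of all shared regions. This too is no separate support, since the regions were picked by limma p from the same peaks. The adjusted p was 0.962 for each of the 6 regions (limma with Benjamini-Hochberg adjustment).

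**Figure D5:**
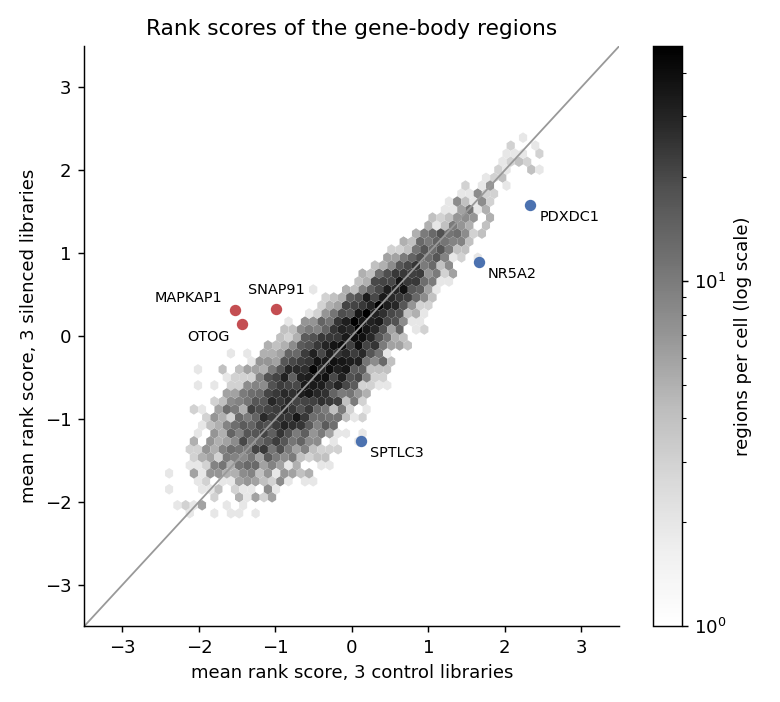
Mean rank score of each gene-body region in the 3 silenced libraries (y axis) against that in the 3 control libraries (x axis), both unitless; grey shade is the number of regions and the line marks equal scores. The regions lie along the line, and the 6 coloured points are the 3 regions in each direction with the smallest limma p.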

How the data were processed

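The authors deposited 1 ATAC-seq peak list per library. Per the submitters' processing notes, the tools were Trimmomatic 0.36, Bowtie2 2.2.6, Picard 2.8.2, MACS2 2.1.1 and bedtools 2.25.0, on GRCh38; their settings, including any shift of read ends for the transposase, are not given in the sources used here. Per the file headers, each peak has a fold enrichment (a ratio), a p-value and an FDR, and a pileup signal, here the height. Per the labels' protocol each library began with 10000 to 50000 cells. Totals of reads are not given, so depth and counting error are unknown.

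Peaks were merged at 1 bp of overlap. Gene spans and start windows came from RefSeq tables of GRCh38.p14; exons and introns were not analysed here. Background was (height + 1) / fold enrichment − 1. Class medians were compared within libraries by exact sign-flip permutation over 6 libraries, and groups by exact permutation of 3 against 3. Single regions were compared with limma 3.58.1 (eBayes with a mean-dependent prior) on normal scores of ranks. On simulated data this limma procedure missed all or part of the shifts put in, depending on their size. The code ran in Python 3.11.15 and R 4.3.3. Regions to name were the 5 tallest by lowest height, the 2 weakest (1 of them is not reported here), the tallest in the 5 genes with most regions, list genes, the limits of the rule, the longest runs and the smallest limma p in each direction. The regions, lists and tests were chosen with earlier results of these data known. Same-numbered libraries did not deviate together (correlations −0.0023, 0.0025 and −0.0079 across shared regions), so the numbers were not treated as pairs. The region sequences planned for display were replaced by RefSeq start windows. Alternatives varied the distance, length, FDR, ranking and libraries.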

Additional observations from a re-analysis of the deposited data

How the results depend on the processing

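The number of gene-body regions fell from 7361 to 4852 at over 20 kb from gene ends and to 2883 with only peaks of an FDR of at most 1e-05. It stayed within 1.5 times under the other distance, length, FDR and overlap settings, and ran from 7672 to 8475 when 1 library was left out, partly because fewer lists must hold a peak. The 4 comparisons of all gene-body regions with gene-end and intergenic regions kept their direction and their side of the threshold under the distance and FDR alternatives and without regions holding an annotated start. The 2 comparisons of regions with a start kept theirs under the FDR alternative, the only filter run on both. Leaving out 1 library leaves 5, for which the exact sign-flip test cannot go below 0.0625. The mean log2 ratios then ran from −1.44 to −1.34 (height against gene-end regions), −1.51 to −1.42 (background against gene-end regions), 0.126 to 0.130 (background against intergenic regions), 0.0696 to 0.108 (height against intergenic regions), 1.18 to 1.26 (with against without a start) and −0.249 to −0.223 (with a start against gene-end regions). The group difference in mean score, −0.0123, turned to 0.0278 when ranked by height and 0.0223 when ranked by p-value; the cause was not tested. Without 1 library it ran from −0.0254 to −0.00291, and the difference in strong regions from −13.7 to −2.63 percentage points. With the replicate number as a pair (replicate block) the differences were −0.0123 and −9.11 percentage points (exact sign-flip permutation p = 0.5 and 0.25), and 0 regions passed in limma. No region passed under any of the limma alternatives run. Heights of 3 or 4 in the weakest regions are a few fragments, and whether small differences there could be detected was not tested.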
